A study of Mus musculus with 6 samples.

Results

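Complement genes were described in retinal ganglion cells (RGCs) sorted by the side to which their axons project. A list of 9 genes was used: the C1q chains C1qa, C1qb and C1qc, the central components C3 and C4b, the receptors C3ar1, C5ar1 and Itgam, and the inhibitor Serping1. A probe set, the group of probes that reads 1 transcript, was counted as a member if the array annotation gave it exactly 1 of these symbols. This found 12 of 45037 probe sets that are not controls, and they stand for 7 of the 9 genes. No probe set was annotated to C3 or C4b alone, and C3 was not analysed here. The samples were ipsilateral RGCs (3 arrays) and contralateral RGCs (3 arrays) of C57BL/6J embryos, labelled E16 in the sample records and E16.5 in the protocol, with no mutation or drug in either group. For each of 3 rounds, rhodamine dextran was put on the cut optic tract for 2 h, the retinas from 2 litters were pooled by side, and cells that carried the dye and excluded DAPI were sorted. A round gave 1 ipsilateral and 1 contralateral sample, each a pool of embryos, and the rounds had been chosen by the study for high Zic2 in the ipsilateral cells. The gate was the dye alone, with no antibody to an RGC or an immune cell protein.

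Complement is a cascade of plasma and tissue proteins. C1q is the recognition unit of its classical pathway, built from A, B and C chains that each join a collagen-like stalk to a globular head, and when it binds a surface its partner proteases cleave C4 and C2 and then C3. Cleavage of C3 and C5 releases the small peptides C3a and C5a, which act on the receptors encoded by C3ar1 and C5ar1. Fragments of C3 left on the surface are read by complement receptor 3, whose alpha subunit is the product of Itgam. In the mouse brain and retina microglia, the resident macrophages, are the main source of C1q, and in the visual thalamus C1q and C3 take part in the removal of RGC synapses by microglia after birth.

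The start regions of 5 members are shown because these are the genes that were called (C1qb, C1qc, C3ar1, C5ar1) and the receptor gene that hardly differed (Itgam). RefSeq promoter sequences of build GRCm38.p6 were found for 6 of the 9 genes, and C1qa, C4b and Serping1 were not among them. Each run holds the 250 bases before the annotated start, 5′ to 3′ on the strand of the gene. Capitals mark GAGGAA or its reverse complement, the core bound by the myeloid transcription factor PU.1. C1qb lies at chr4:136886201-136886450 (minus strand), C1qc at chr4:136892915-136893164 (minus strand), C3ar1 at chr6:122856158-122856407 (minus strand), C5ar1 at chr7:16259339-16259588 (minus strand) and Itgam at chr7:128062390-128062639 (plus strand).
C1qb: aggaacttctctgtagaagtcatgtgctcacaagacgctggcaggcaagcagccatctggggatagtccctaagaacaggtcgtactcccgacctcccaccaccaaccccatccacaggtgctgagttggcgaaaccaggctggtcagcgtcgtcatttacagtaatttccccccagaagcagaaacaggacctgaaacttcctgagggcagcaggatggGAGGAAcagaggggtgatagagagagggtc
C1qc: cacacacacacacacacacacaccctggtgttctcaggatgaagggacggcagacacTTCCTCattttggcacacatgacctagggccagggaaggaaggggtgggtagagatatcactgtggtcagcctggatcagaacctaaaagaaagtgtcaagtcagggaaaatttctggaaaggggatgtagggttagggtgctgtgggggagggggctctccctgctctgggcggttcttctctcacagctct
C3ar1: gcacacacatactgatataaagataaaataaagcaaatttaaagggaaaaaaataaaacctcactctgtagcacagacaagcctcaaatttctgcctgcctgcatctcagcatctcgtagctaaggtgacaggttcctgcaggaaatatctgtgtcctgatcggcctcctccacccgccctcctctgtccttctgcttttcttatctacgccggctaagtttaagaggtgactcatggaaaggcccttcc
C5ar1: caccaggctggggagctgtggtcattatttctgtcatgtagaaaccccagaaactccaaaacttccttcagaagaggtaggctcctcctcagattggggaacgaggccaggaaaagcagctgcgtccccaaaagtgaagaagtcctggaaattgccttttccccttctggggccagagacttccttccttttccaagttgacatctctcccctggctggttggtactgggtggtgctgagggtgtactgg
Itgam: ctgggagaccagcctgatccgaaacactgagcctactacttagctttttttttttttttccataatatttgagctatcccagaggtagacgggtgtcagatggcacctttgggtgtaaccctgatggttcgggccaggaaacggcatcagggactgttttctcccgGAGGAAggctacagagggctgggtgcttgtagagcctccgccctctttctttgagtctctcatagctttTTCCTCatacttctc

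The PU.1 core was found once in C1qb, 30 to 25 bases before the start, once in C1qc, on the reverse strand, and at 2 places in Itgam, of which the nearer was 15 to 10 bases before the start. It was in neither C3ar1 nor C5ar1, and 23.3% of all 32851 promoter windows of this length held it. An AP-1 site (TGANTCA) was found in C3ar1 alone of these 5, 22 to 16 bases before the start, against 6.75% of all windows. A TATA box (TATAAA) was also found only in C3ar1 among them, 235 to 230 bases before the start, against 12.4% of all windows. An E-box (CANNTG) was found in C1qb, C1qc, C5ar1 and Itgam, and 66.2% of all windows held one. Both strands were searched, and the matches describe these letters only. In the same gene table C1qb, C1qc and C1qa follow each other on chromosome 4 with 0 other protein-coding genes between them.

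Of the 7 genes, each at its probe set with the highest mean over the 6 arrays (the brightest probe set), 4 rose in ipsilateral RGCs and 0 fell. Those that rose were C1qb, C1qc, C5ar1 and C3ar1. A gene was called when it changed at least 2-fold and limma gave a Benjamini–Hochberg adjusted p below 0.05, over 36029 probe sets whose mean log2 value reached the 20th percentile (4.74, the filter level). Over the 15346 genes tested, 0.358% rose and 0% fell at these thresholds. At an unadjusted p below 0.05 and 2-fold, 5 members were higher and 0 lower by limma, and likewise 5 and 0 by an unmoderated test. The share of all genes at these looser thresholds was not counted. Such counts, here and for the lists below, thus have no background to be set against. C1qa and Serping1 were tested and not called, and Itgam lay under the filter level. The median log2 difference, ipsilateral minus contralateral, was 2.67 over the 7 genes, against −0.01 over all genes tested. The 3 ipsilateral arrays lay above all 3 contralateral arrays for 5 of the 7 genes, and 3.84% of all genes tested had that order. The same 5 genes were higher in the ipsilateral sample of every round, as were 17.6% of all genes tested. In these pooled samples a change in the number of cells of a type and a change in RNA per cell cannot be told apart.

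**Figure D1:**
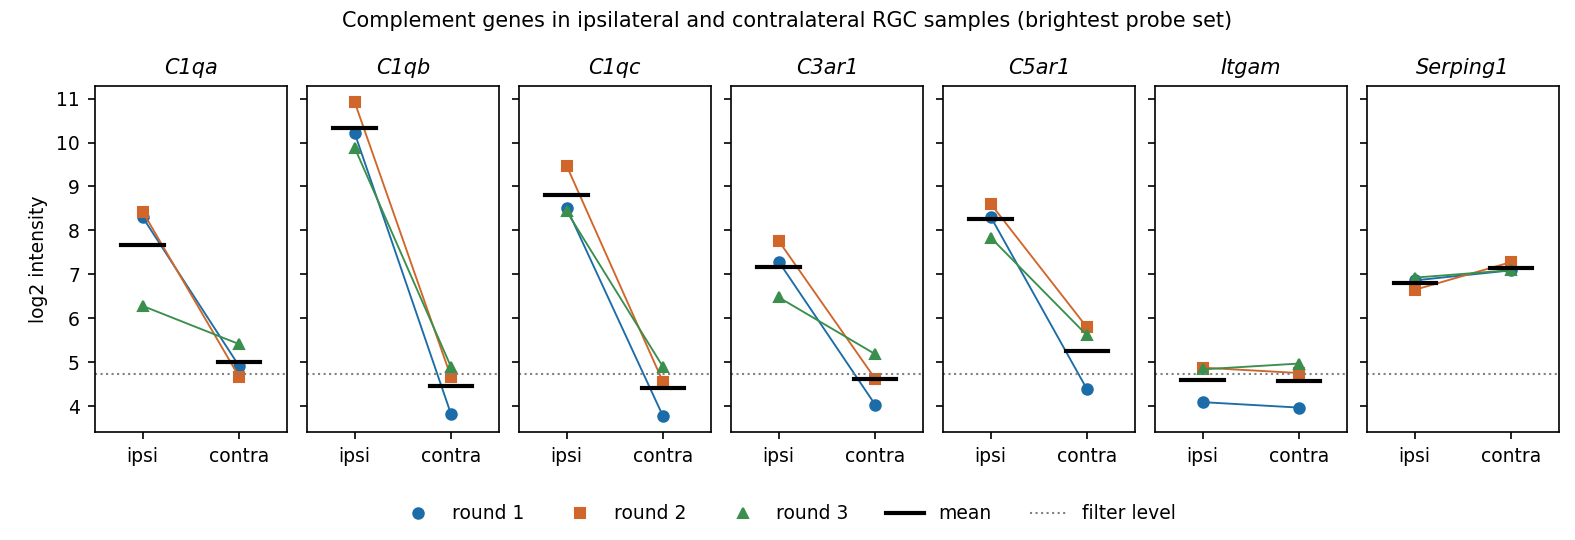
Log2 intensity (vertical axis) of 7 complement genes at the brightest probe set, in ipsilateral (ipsi) and contralateral (contra) RGC samples. Symbols are single arrays, linked by round, black bars are means of 3 arrays, and the dotted line is the filter level of 4.74. The 3 C1q genes, C3ar1 and C5ar1 are higher in the ipsilateral sample of every round, Itgam stays near the dotted line in both groups, and Serping1 is slightly lower in the ipsilateral sample.

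C1qb, the gene of the B chain of C1q, was bright in each ipsilateral sample and dim in each contralateral one. Its log2 levels were 10.21, 10.92 and 9.88 in ipsilateral RGCs of rounds 1 to 3, against 3.81, 4.66 and 4.89 in contralateral RGCs. The groups did not overlap, and the closest pair, both from round 3, was 4.99 apart. On its own array the probe set ranked at the 97.0, 97.6 and 93.3 percentile in ipsilateral samples, against the 16.4, 15.3 and 17.1 percentile in contralateral samples. It averaged 10.34 ± 0.53 in ipsilateral and 4.46 ± 0.57 in contralateral RGCs (SD, n = 3 each). The log2 difference was 5.88 (SE 0.45, limma adjusted p = 1.08e-04, and 0.0117 with the replicate block, which pairs the samples of a round). Because the contralateral mean of 4.46 was under the filter level, the fold between the group means was counted from that level (at least 48.6-fold). This bound holds for the means and not for each round, as round 3 differed by 4.99 log2 units.

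C1qc, the gene of the C chain, had the next largest difference. Its log2 levels were 8.51, 9.47 and 8.43 in ipsilateral RGCs, against 3.77, 4.55 and 4.89 in contralateral RGCs, so that the lowest ipsilateral sample was well above the highest contralateral one. It averaged 8.80 ± 0.58 in ipsilateral and 4.40 ± 0.58 in contralateral RGCs (SD, n = 3 each). The log2 difference was 4.40 (SE 0.45, limma adjusted p = 7.25e-04, and 0.0281 with the replicate block). Between the group means this was at least 16.8-fold counted from the filter level, while round 3 alone differed by 3.54 log2 units. All 3 contralateral values, like those of C1qb, were under the 20th percentile of their own array, where a measured level says little about the amount of transcript. The calls of C1qb and C1qc held in each fit without 1 array, and with both arrays of round 1 left out the limma adjusted p was 0.206 for C1qb and 0.233 for C1qc, in a fit that called 0 probe sets of the whole array.

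C1qa, the gene of the A chain, was split by round on the ipsilateral side. Its log2 levels were 8.30, 8.43 and 6.28 in ipsilateral RGCs of rounds 1 to 3, against 4.91, 4.67 and 5.41 in contralateral RGCs. The ipsilateral sample of round 3 was thus about 2 log2 units below the other ipsilateral samples, yet above every contralateral sample. C1qa averaged 7.67 ± 1.20 in ipsilateral and 5.00 ± 0.38 in contralateral RGCs (SD, n = 3 each). Rounds 1 to 3 had log2 differences of 3.38, 3.76 and 0.87, and their mean of 2.67 was not called (SE 0.54, limma adjusted p = 0.0794, and 0.177 with the replicate block). Without ipsilateral replicate 3 the difference was 3.36 and passed (limma adjusted p = 0.0084), and it passed without ipsilateral replicate 1 (limma adjusted p = 0.0435).

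The probe sets of C1qb differed among themselves. Probe set 1437726_x_at is the one given above. Probe set 1434366_x_at had log2 levels of 9.28, 10.73 and 9.40 in ipsilateral RGCs, against 4.18, 4.86 and 5.36 in contralateral RGCs, and rose by 5.00 (SE 0.49, limma adjusted p = 4.53e-04, and 0.0297 with the replicate block). Probe set 1417063_at had log2 levels of 6.73, 8.54 and 6.16 in ipsilateral RGCs, against 3.38, 5.74 and 4.81 in contralateral RGCs. Its difference was 2.50 (SE 0.65, limma adjusted p = 0.301), and it passed without contralateral replicate 2 (limma adjusted p = 0.0174). The endings x_at mark probes that can also match other transcripts, so what those probe sets share with other genes was not tested.

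C5ar1, the gene of the C5a receptor, rose at 1 of its 2 probe sets. At 1439902_at its log2 levels were 8.31, 8.60 and 7.84 in ipsilateral RGCs, against 4.38, 5.79 and 5.61 in contralateral RGCs. Every ipsilateral sample was more than 2 log2 units above every contralateral sample. It averaged 8.25 ± 0.39 in ipsilateral and 5.26 ± 0.77 in contralateral RGCs (SD, n = 3 each). The log2 difference was 2.99, or 7.95-fold (SE 0.46, limma adjusted p = 0.0132, and 0.0645 with the replicate block). The other probe set, 1422190_at, lay between 5.00 and 6.01 in ipsilateral and between 4.95 and 5.25 in contralateral RGCs, with overlapping groups and a difference of 0.29 (limma adjusted p = 1.0).

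C3ar1, the gene of the C3a receptor, rose at 1 of its 3 probe sets. At 1419483_at its log2 levels were 7.29, 7.76 and 6.48 in ipsilateral RGCs, against 4.03, 4.63 and 5.18 in contralateral RGCs. The groups did not overlap, and round 3 had the lowest ipsilateral and the highest contralateral value. It averaged 7.18 ± 0.65 in ipsilateral and 4.61 ± 0.57 in contralateral RGCs (SD, n = 3 each). The log2 difference was 2.56 (SE 0.46, limma adjusted p = 0.0375). Between the group means this was at least 5.42-fold counted from the filter level, while round 3 alone differed by 1.29 log2 units. The call was lost with the replicate block (limma adjusted p = 0.112), with no filter (0.0532) and without contralateral replicate 1 (0.125). Probe set 1419482_at differed by 0.49 (limma adjusted p = 1.0) with overlapping groups. Probe set 1442082_at lay under the filter level in both groups, at mean log2 levels of 4.30 and 3.71 in ipsilateral and contralateral RGCs, and was tested only without the filter (difference 0.59, limma adjusted p = 1.0).

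**Figure D2:**
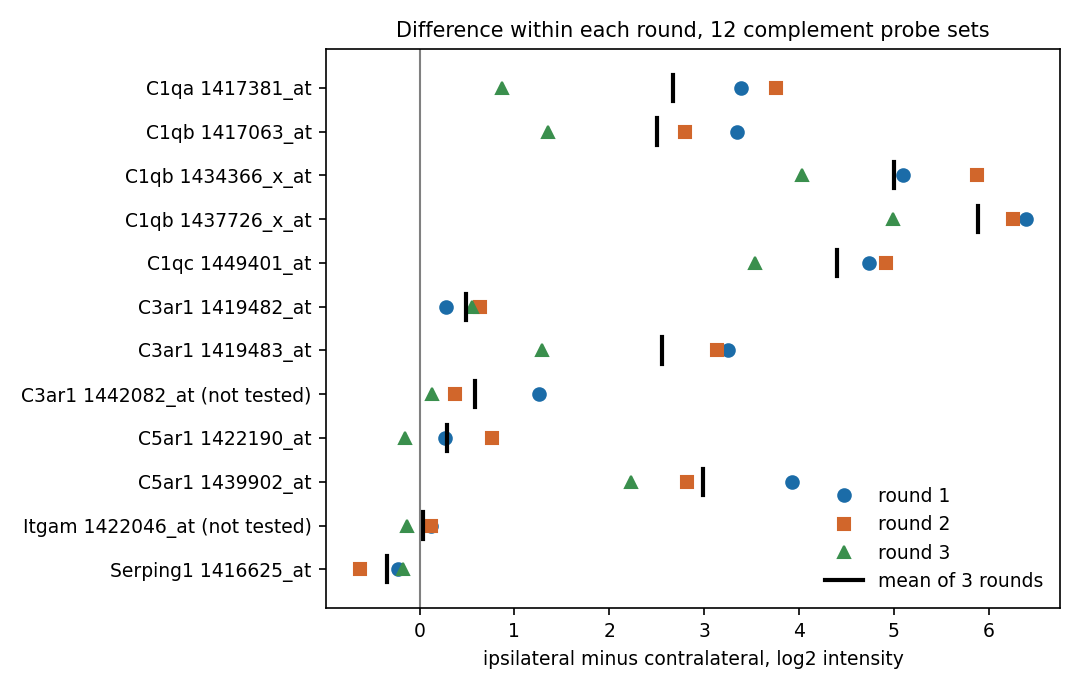
Log2 difference, ipsilateral minus contralateral (horizontal axis), within each round for the 12 complement probe sets. Symbols are rounds and black bars are means of 3 rounds. The round 3 symbol is the leftmost for every probe set of the C1q chains and for the brightest probe set of C3ar1 and of C5ar1, and the dimmer probe sets of C3ar1 and C5ar1 have means of 0.29 to 0.59.

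Itgam, the gene of CD11b, did not share the pattern of the other receptors. Its single probe set had log2 levels of 4.09, 4.87 and 4.84 in ipsilateral RGCs, against 3.97, 4.75 and 4.97 in contralateral RGCs. The values were near the dim end of every array, at the 14.9 to 20.4 percentile in ipsilateral and the 16.7 to 19.3 percentile in contralateral samples. The groups overlapped, and the mean difference was 0.04. It was tested only without the filter, where limma gave an adjusted p = 1.0, so that no level of Itgam could be told from a dim one in either group.

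Serping1, which encodes the inhibitor of the proteases C1r and C1s, was the one member with a lower level in ipsilateral RGCs in all 3 rounds. Its log2 levels were 6.86, 6.65 and 6.92 in ipsilateral RGCs, against 7.09, 7.28 and 7.09 in contralateral RGCs. The ipsilateral values all lay below the contralateral values, an order shown by 1.98% of all genes tested, and 20.2% were lower in all rounds. The means were 6.81 ± 0.15 in ipsilateral and 7.15 ± 0.11 in contralateral RGCs (SD, n = 3 each). The difference of −0.34 was less than 2-fold and was not called (SE 0.38, limma adjusted p = 1.0, and 0.427 with the replicate block).

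By probe set, 5 of the 12 members rose, 5 were tested and not called, and 2 were under the filter level. Over all 36029 probe sets tested, 0.244% rose. With the replicate block 3 of the member probe sets rose (2 of C1qb and that of C1qc), against 0.208% of all probe sets tested. Of the 12, 7 had ipsilateral values that were all above the contralateral ones, as did 3.26% of all probe sets tested. Of the 10 member probe sets that were tested, 5 had a contralateral mean under the filter level, against 1.61% of all tested, and these passed the filter only through their ipsilateral values. A count over members that passed is therefore not independent of their difference. The probe set shared by C4a and C4b was no member. It had log2 levels of 5.16, 5.14 and 5.77 in ipsilateral RGCs, against 5.11, 5.29 and 5.69 in contralateral RGCs, and a difference of −0.01.

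At the brightest probe set, the other complement genes that could be measured stayed within a range that also held Itgam (0.04) and Serping1 (−0.34). C1qa (2.67), tested and not called, lay above that range. The called members were picked on these same values, so a contrast with them is not independent of that choice. Of 49 other complement genes, 43 had a probe set of their own and 32 were tested, of which 0 rose and 0 fell by limma. Over all genes tested 0.358% rose and 0% fell, so a list of this size would mostly hold 0 calls. By limma with a 2-fold change and an unadjusted p below 0.05 there were 0, and by an unmoderated test also 0. At the brightest probe set of each gene, the median log2 difference of the 43 was 0.03, and the range was −0.56 to 0.62. Over all their probe sets the range was −0.61 to 0.99, with 0 called by limma and 0 at 2-fold with an unadjusted p below 0.05. At the brightest probe set 11 of the 43 lay under the filter level, where a difference could hardly show. A call needed a 2-fold change, and the median SE over all genes tested was 0.44, so smaller differences were not settled. The classical pathway genes C1ra, C1s1 and C2, whose products are the partner proteases of C1q and their substrate, had differences of 0.05, 0.05 and −0.08. None of 8 lectin pathway genes and none of 6 terminal pathway genes differed by more than 0.15 at the brightest probe set. In the alternative pathway Cfp, the gene of properdin, had log2 levels of 7.58, 8.58 and 7.86 in ipsilateral RGCs, against 6.91, 7.53 and 7.77 in contralateral RGCs, with overlapping groups and a difference of 0.60 (limma adjusted p = 1.0). The other probe set of Cfp, 1447537_at, went the other way with a difference of −0.14, and its rounds differed by 0.56, −0.97 and −0.01.

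Among the other receptors, Itgb2, the beta subunit that pairs with the product of Itgam, had log2 levels of 6.18, 5.82 and 5.62 in ipsilateral RGCs, against 4.40, 6.24 and 5.28 in contralateral RGCs. The groups overlapped because the contralateral sample of round 2 was the highest of the 6, and the difference was 0.56 (limma adjusted p = 1.0). Among the regulators, Clu, the gene of clusterin, which inhibits the terminal complex, differed by 0.62, and Susd4, a membrane regulator, by −0.56 (limma adjusted p = 1.0 each). Susd4 was lower in the ipsilateral sample of every round, as were 20.2% of all genes tested, with overlapping groups. So was its other probe set, 1424221_at, with a difference of −0.61. The other 3 probe sets of Clu differed by 0.70 to 0.99, and the last of these, 1437689_x_at, was higher in the ipsilateral sample of all 3 rounds with overlapping groups (limma adjusted p = 1.0). Of the pentraxins, which bind C1q, the neuronal gene Nptx1 differed by −0.12 at its brightest probe set and by −0.60 at 1422130_at, below 0 in every round but with overlapping groups (limma adjusted p = 1.0 each).

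**Figure D3:**
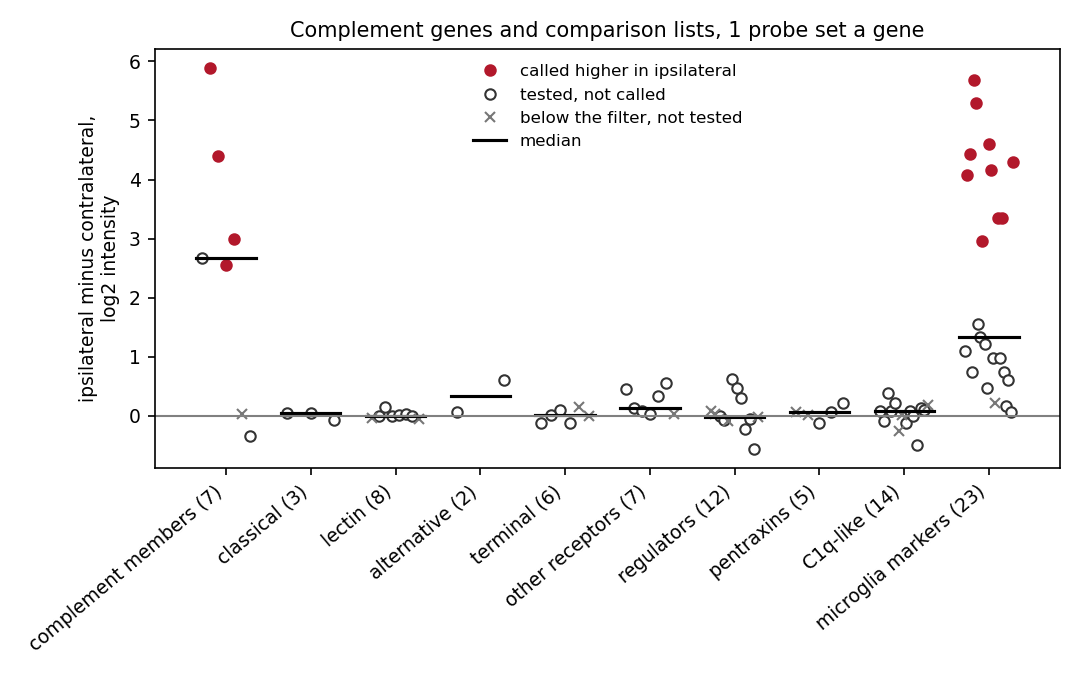
Log2 difference, ipsilateral minus contralateral (vertical axis), of single genes in each list, with the number of genes in brackets. Filled symbols rose, open symbols were tested and not called, crosses were under the filter level, and bars are medians. The complement members have a median of 2.67 and the microglia and macrophage markers one of 1.33, while the 43 other complement genes stay between −0.56 and 0.62.

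Markers of microglia and macrophages moved with the members. Their list, which holds no complement gene, had 23 of 24 genes with a probe set of their own. Of 22 tested, 10 rose and 0 fell by limma (Csf1r, Ctss, Laptm5, Cd53, Tyrobp, Ly86, Aif1, P2ry12, Sall1 and Fcrls), against the 0.358% of all genes tested that rose. With the replicate block 8 of them were called, against 0.208% of all probe sets tested that rose with the block. Cd53 (limma adjusted p = 0.0842) and P2ry12 (limma adjusted p = 0.0675) were then not called. With a 2-fold change and an unadjusted p below 0.05 there were 14 by limma and 11 by an unmoderated test, and the share of all genes there was not counted. Of the 22 tested, 7 had a contralateral mean under the filter level, with Csf1r, Aif1, Ly86 and Sall1 among those called. These 7 passed the filter only through their ipsilateral values, so the counts of this list are not independent of the differences either. The summed intensity of the listed markers was 8770 to 13500 in ipsilateral and 787 to 1770 in contralateral RGCs. That of the 3 C1q chains was 1370 to 2990 in ipsilateral and 57.8 to 102 in contralateral RGCs. No value of these arrays is 0. Of the defining markers, Spi1 (PU.1) and Trem2 differed by 0.16 and 0.07, and Mrc1 was under the filter level. The part of such cells in the differences of the complement genes was not tested.

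The members and this list both had their smallest difference in round 3. The median log2 difference of the 7 complement genes was 3.38, 3.14 and 1.29 in rounds 1 to 3, and that of the 23 microglia and macrophage markers was 1.92, 2.26 and 0.71. Over all genes tested the round medians were 0.01, −0.02 and −0.03. All 5 member probe sets that rose had their smallest difference in round 3.

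**Figure D4:**
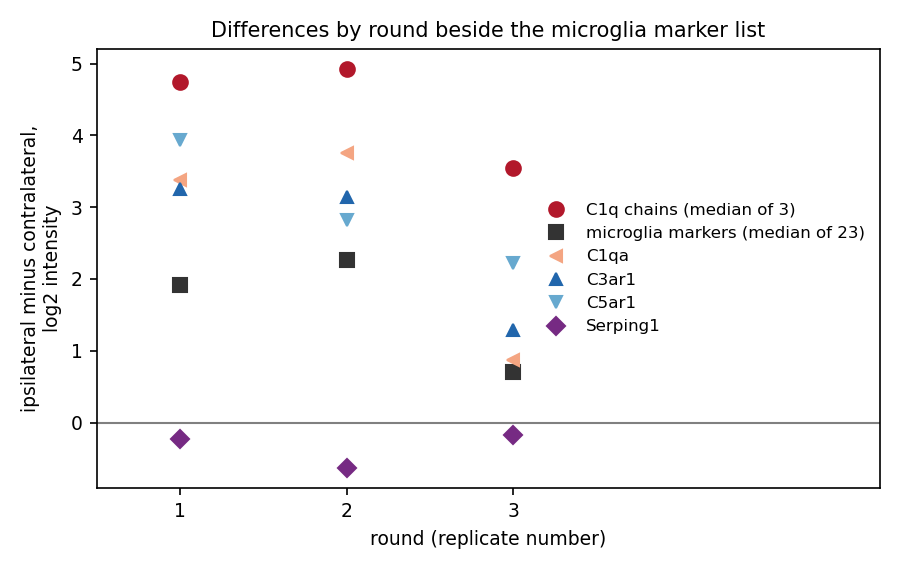
Log2 difference, ipsilateral minus contralateral (vertical axis), in each round (horizontal axis). Symbols are the median of the 3 C1q chains, the median of 23 microglia and macrophage markers, and single complement genes at the brightest probe set. All series but Serping1 are lowest in round 3, and Serping1 is below 0 in every round.

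Markers of retinal progenitors were also higher in ipsilateral RGCs. The median log2 difference of 11 genes was 1.56, and 1.23, 1.56 and 2.55 in rounds 1 to 3, so that it was largest in round 3. Of these genes 9 were higher in the ipsilateral sample of every round, against 17.6% of all genes tested. The ipsilateral values of 8 were all above the contralateral ones, against 3.84% of all genes tested. Their summed intensity was 11200 to 22300 in ipsilateral and 6850 to 7330 in contralateral RGCs, and their part in the differences of the complement genes was not tested. Limma called 2 of the 11 (Sox2 and Sfrp2), against 0.358% of all genes tested that rose, and 0 with the replicate block (limma adjusted p = 0.156 and 0.0629).

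Of 14 measured pan-RGC genes 0 were called, and 13 were lower in the ipsilateral sample of every round, against 20.2% of all genes tested. For 5 the ipsilateral values all lay below the contralateral ones, against 1.98% of all genes tested. The summed intensity of the 14 was 39100 to 47800 in ipsilateral and 47300 to 58100 in contralateral RGCs. Limma called 0 of 5 tested genes of other leukocytes, 0 of 8 of endothelial cells and pericytes, 0 of 6 of mesenchyme and 0 of 6 of astrocytes and glia. Over all genes tested 0.358% rose, so lists of this size would mostly hold 0 calls. By limma with a 2-fold change and an unadjusted p below 0.05 there were 0 of RGCs, 0 of other leukocytes and 8 of retinal progenitors. There were also 1 of endothelial cells and pericytes (Kdr, 1.02), 1 of mesenchyme (Col1a2, 2.15) and 1 of astrocytes and glia (Slc1a3, 1.59). Kdr, Col1a2 and Slc1a3 each had all ipsilateral values above the contralateral ones, as did 3.84% of all genes tested. The median differences of their lists were −0.0002, 0.17 and 0.14. By an unmoderated test there were 0 of RGCs, 0 of other leukocytes and 0 of endothelial cells and pericytes. That test gave 1 of mesenchyme, 1 of astrocytes and glia and 7 of retinal progenitors. The share of all genes at these thresholds was not counted.

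The genes whose profile over the 6 arrays was most like the mean profile of the C1q chains were Ccl3, Sall1, Aif1, Fcrls and Cd302. Ccl3 encodes a chemokine of myeloid cells, Sall1 a transcription factor of microglia, and Aif1 the macrophage protein Iba1. Their Pearson r was 0.998, 0.994, 0.992, 0.992 and 0.991 over 6 arrays, which share the round effects and the difference between sides, so that r is a description. Ccl3 had log2 levels of 8.68, 9.36 and 8.23 in ipsilateral RGCs, against 4.15, 4.90 and 5.25 in contralateral RGCs. Against the same profile r was 0.99 for C3ar1, 0.98 for C5ar1, 0.13 for Itgam and −0.90 for Serping1.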

How the data were processed

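RNA of sorted ipsilateral and contralateral RGCs was amplified as cDNA with the Ovation Pico WTA System, from equal starting RNA within a round, and hybridized to Affymetrix mouse whole-genome arrays. The authors deposited log2 intensities per probe set, made with RMA in Affymetrix Expression Console 1.1 per the labels. RMA corrects background, normalizes and summarizes probes, and whether all arrays were normalized together is not given in the sources used here. Array medians were 5.81, 6.71 and 6.33 for ipsilateral and 5.80, 6.65 and 6.26 for contralateral RGCs. The deposited values thus share no common scale over the rounds, and levels are best compared within a round. The 20th percentile of an array was 4.04 to 4.06 in round 1 and 4.96 to 5.02 in rounds 2 and 3. The filter level of 4.74 therefore lay above it in round 1 and below it in the other rounds. No detection calls were used, and the number of arrays limits the precision.

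Of 45101 probe sets, 64 controls were left out. Symbols came from the platform annotation and were updated by Entrez identifier, which was found for 34741 of 34945 probe sets with 1 gene. Another 932 name several genes and 9160 none listed. The main test was limma 3.58.1 (lmFit, eBayes), run in R 4.3.3, with no block, as the study's methods name no paired test. The study describes paired ipsilateral and contralateral samples for each round, and samples with the same replicate number were taken as a round. Deviations from group means correlated at 0.566, 0.574 and 0.705 for the same number, against −0.403 to −0.219 for different numbers. The deviations within a group cancel out by construction, so positive values for the same number push the others down. The script was checked on simulated data. The 9 genes and all lists were chosen with earlier results of these data known. Named genes are all members, up to 4 genes per list with the largest difference, called genes, and the 5 most alike profiles, and Trem2, Spi1, Mrc1, Nptx1, C1ra, C1s1 and C2 were added for their roles after their values were seen. Alternatives covered the block, filters, normalization, variance model, array weights, probe set choice, fold threshold, and each array or round left out. No protein sequences were used.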

Additional observations from a re-analysis of the deposited data

How the results depend on the processing

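The count of 4 complement genes that rose became 2 with the replicate block (C1qb and C1qc) and 0 with an unmoderated test, which called 0 probe sets of the whole array. It lay between 0 and 5 with 1 array or both arrays of a round left out. No complement gene of either list fell, and no other complement gene rose, under any of the 20 alternatives. In every refit but that with array weights, 0 probe sets of the whole array fell. The lack of falls is therefore no trait of these genes. No member gene that passed the filter changed direction at its brightest probe set. Itgam (0.12, 0.12 and −0.13 in rounds 1 to 3) was fitted only without the filter, so its direction was not followed. The dimmer C5ar1 probe set 1422190_at (0.29) was at −0.06 with array weights and −0.01 without ipsilateral replicate 2. Over the single genes, 94 of 119 repeats kept the side of the threshold, 18 lost a call and 7 gained one, all 7 of C1qa. With the probe sets of each gene averaged, C3ar1 (limma adjusted p = 1.0) and C5ar1 (0.275) were lost and C1qa passed (0.0297). C5ar1 was also lost without any 1 round (limma adjusted p from 0.0938 to 0.346), as was C3ar1 (0.0988 to 0.81). The 50th percentile filter left out C3ar1. The whole-array count of 88 became 179 with an intensity trend and robust estimation, 1001 (and 148 lower) with array weights, whose estimation stopped before its tolerance, 42 with averaged probe sets, 47 to 212 without 1 array, and 0, 14 and 23 without round 1, 2 and 3. Array weights also moved the log2 difference of C1qa to 1.22 and that of C3ar1 to 1.53. Beside C3ar1 and C5ar1, the replicate block changed no call of a member gene at its brightest probe set. Low signal limits the size of differences for genes dim in contralateral RGCs.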

Other observations

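Genes with a C1q-like globular domain that act outside the complement cascade were measured on the same arrays. Of 16 such genes, 14 had a probe set of their own. At the brightest probe set of each, 11 were tested and 0 were called in either direction by limma. Over all genes tested 0.358% rose and 0% fell, so a list of this size would mostly hold 0 calls. By limma with a 2-fold change and an unadjusted p below 0.05 there were 0, and by an unmoderated test also 0. Their median log2 difference was 0.08. Cbln1, the gene of a synaptic organizer of the cerebellum, had log2 levels of 6.99, 6.77 and 6.92 in ipsilateral RGCs, against 6.96, 7.38 and 7.83 in contralateral RGCs, and a difference of −0.49 (SE 0.40, limma adjusted p = 1.0). At another probe set, 1423288_s_at, it had levels of 6.38, 4.98 and 5.87 in ipsilateral RGCs, against 6.54, 6.67 and 7.05 in contralateral RGCs. There all ipsilateral values were the lower ones, and the difference was −1.01 (SE 0.44, limma adjusted p = 1.0), past 2-fold with an unadjusted p below 0.05, the 1 such case over all probe sets of the list. At the remaining probe set, 1423287_at, the groups overlapped and the rounds differed by 1.24, −1.15 and −0.40, with a mean of −0.10. C1ql3, which encodes a C1q-like protein of synapses, differed by 0.38 and was higher in the ipsilateral sample of all 3 rounds (limma adjusted p = 1.0). At 1425175_at it differed by 0.75 and was not called. There all ipsilateral values were the higher ones, as for 3.26% of all probe sets tested, and the contralateral mean of 4.47 was under the filter level. Probe set 1451620_at was under that level and differed by 0.23.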
